A study of Mus musculus with 18 samples.

Results

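The genes described are the 8 that encode the acetylcholine receptor of skeletal muscle and the proteins that hold and serve it at the endplate: the subunits Chrna1, Chrnb1, Chrnd, Chrng and Chrne, the receptor kinase Musk, the scaffold protein Rapsn and the enzyme Ache. Members were found by the gene symbol of each probe, which gave 17 of the 45281 probes and 8 of the 30869 symbols on the array. RNA came from mouse ESD3 (D3) embryonic stem cells of strain 129s2/SvPas, in which a virus delivered a short hairpin RNA against luciferase (WT control) or against HPRT (HPRT-knockdown), a purine salvage enzyme. Both kinds of cell therefore carried a hairpin vector and both were selected with puromycin, and the HPRT hairpin was designed on the human gene. Control and knockdown cells were sampled as undifferentiated cells grown on mouse embryo fibroblasts with LIF and bFGF (ES stage), as spherical neural masses (SNM stage) and at the end of dopaminergic differentiation (neuronal stage), each condition on 3 Illumina MouseWG-6 v2 arrays. All 3 arrays of a condition measured the same pool of RNA from replicate cultures. Every SD, interval and p-value below therefore covers array error, the spread among cultures was not measured, and the small number of arrays limits precision.

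The muscle receptor is a channel built of several subunits that opens when acetylcholine from a motor nerve binds to it. The alpha, beta and delta subunits (Chrna1, Chrnb1, Chrnd) are present before and after innervation, whereas the gamma subunit (Chrng) of the fetal receptor gives way to the epsilon subunit (Chrne) of the adult receptor as the endplate matures. Musk is the kinase through which nerve-derived agrin sets up the endplate, Rapsn links receptors into clusters, and Ache breaks down acetylcholine in the cleft. In developing muscle the receptor genes are switched on by myogenic factors such as Myod1 and Myog, which bind E-box sequences. Of these genes Ache also has a long-known role in neurons, whereas the muscle receptor subunits are mainly used as genes of skeletal muscle.

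Chrng and Chrna1 follow a like pattern, described below, and Chrne a different one. The sequences just before the annotated starts of these 3 members are shown for that reason. They also hold the motifs that muscle research associates with fetal and adult receptor genes. They are RefSeq sequences of assembly GRCm38.p6, read 5′ to 3′ on the strand of the gene, 160 bases ending at the base before the start. Capitals mark the E-box, CANNTG, and the N-box, CCGGAA, each searched on both strands. Chrng lies on the plus strand at chr1:87205651-87205810, Chrna1 on the minus strand at chr2:73580339-73580498 and Chrne on the minus strand at chr11:70619195-70619354.
Chrng: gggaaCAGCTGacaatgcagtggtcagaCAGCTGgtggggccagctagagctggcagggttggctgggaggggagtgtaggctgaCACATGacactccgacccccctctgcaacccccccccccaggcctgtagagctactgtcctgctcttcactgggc
Chrna1: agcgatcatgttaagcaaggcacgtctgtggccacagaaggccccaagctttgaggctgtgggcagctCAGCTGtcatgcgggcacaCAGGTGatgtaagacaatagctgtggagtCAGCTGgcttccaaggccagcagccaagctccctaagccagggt
Chrne: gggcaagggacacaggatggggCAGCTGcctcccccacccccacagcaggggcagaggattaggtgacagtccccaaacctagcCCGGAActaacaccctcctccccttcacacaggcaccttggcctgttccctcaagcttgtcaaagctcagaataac

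Of the 8 members, 6 had a promoter sequence (all but Chrnd and Rapsn), and the windows of 250 bases before the start were searched in full. Chrng held the E-box CAGCTG beginning 155 and 132 bases before its start. Chrna1 held it 92 and 44 bases before its start, and Musk 68 bases before its start. Chrnb1 and Ache did not hold it, so it was absent from 1 of the 3 subunits called higher at the SNM stage. Across 32851 promoter windows of the same length, 1.26% held 2 or more CAGCTG E-boxes and 13% held at least 1. Chrne held 1 CAGCTG E-box, 138 bases before its start, and Chrne alone among the 6 members held an N-box, 76 bases before its start, a motif present in 12% of all windows. The general E-box is common, being present in 66.2% of all windows, and was found in all 6 members. A match of letters says nothing of binding in these cells. Chrng and Chrnd, the genes of the gamma and delta subunits, are neighbouring protein-coding genes in the reference table.

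Between 18827 and 22202 probes were detected on each array at a detection p-value under 0.05, the share of negative-control beads brighter than the probe. Hprt1, the targeted gene, changed in knockdown cells by -94.1% in ES arrays, -70.5% in SNM arrays and -95.4% in neuronal arrays, in keeping with the labels. Of the neuron markers, Snap25 was not detected in any condition, and Tubb3 was not detected on any knockdown array of the neuronal stage. At least 1 probe of 7 members was detected on all 3 arrays of some condition. The exception was Musk, which therefore entered no test, and 13 of the 17 member probes were detected in this way against 23172 of all probes. Where a member has several probes its brightest is used, and signals are given as log2 after background correction and normalization. Probes differ in sequence, so signals are compared between conditions and never between genes.

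The genes were chosen by measured values: skeletal muscle genes had far lower signals in knockdown than in control arrays of the neuronal stage. Each comparison that uses neuronal stage arrays is a description, and tests are given for the ES and SNM stages alone. In bulk RNA, fewer cells of a type and less RNA per cell cannot be told apart.

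Chrna1, the subunit that carries the acetylcholine binding sites, was not detected on any of the 6 ES arrays, with log2 signals of 4.28, 4.37 and 4.34 in WT control and 4.23, 4.27 and 4.27 in HPRT-knockdown cells. SNM control arrays gave 5.95, 6.15 and 5.92 and SNM knockdown arrays 7.43, 7.41 and 7.35. Neuronal control arrays gave 11.80, 11.68 and 11.62 and neuronal knockdown arrays 4.51, 4.68 and 4.39. The highest signals were those of control neuronal arrays, the SNM knockdown arrays lay above the SNM control arrays without overlap, and the knockdown neuronal arrays were again below detection.

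Chrnb1, the beta subunit, was detected on all 18 arrays. It gave 7.18, 7.24 and 7.12 in control and 7.40, 7.38 and 7.24 in knockdown ES arrays, 6.27, 6.16 and 6.16 in control and 7.58, 7.60 and 7.70 in knockdown SNM arrays, and 10.27, 10.39 and 10.30 in control and 6.72, 6.88 and 6.77 in knockdown neuronal arrays. Control cells were thus lowest at the SNM stage and highest at the neuronal stage, whereas the knockdown arrays stayed within a narrower band and were lowest at the neuronal stage.

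Chrng, the fetal subunit, was not detected on ES arrays, at 4.46, 4.75 and 4.55 in control and 4.31, 4.37 and 4.58 in knockdown cells. Its SNM signals were 5.56, 5.62 and 5.28 in control and 7.20, 7.08 and 7.07 in knockdown arrays. Its neuronal signals were 11.38, 11.31 and 11.33 in control and 4.66, 4.69 and 4.63 in knockdown arrays, the latter below detection. The order of conditions was that of Chrna1 down to the control SNM arrays, and the 3 conditions in which Chrng was not detected carry no order.

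Chrne, the adult subunit, was measured by a single probe that stayed close to background. It gave 4.77, 4.86 and 4.74 in control and 4.64, 4.70 and 4.54 in knockdown ES arrays, none of them detected. In SNM cells it gave 4.95, 4.89 and 4.46 in control arrays, 2 of them detected, and 4.71, 4.60 and 4.51 in knockdown arrays, 1 of them detected. All 6 neuronal arrays detected it, at 5.45, 4.95 and 5.41 in control and 5.36, 5.35 and 5.09 in knockdown cells. The neuronal arrays of both kinds of cell overlapped, unlike those of Chrna1, Chrnb1, Chrnd, Chrng, Rapsn and, near background, Musk.

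Chrnd, the delta subunit, was detected in a single condition, the control neuronal arrays, at 5.83, 5.54 and 5.43. Its other 15 signals lay between 4.25 and 4.48, none of them detected. Musk was detected on 2 of the 3 control neuronal arrays, with signals of 4.86, 4.69 and 4.72, and on no other array, where it lay between 4.21 and 4.58. Both genes were therefore highest in control neuronal cells, with Musk at the edge of what the array could measure.

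Rapsn, the scaffold of receptor clusters, was already detected at the ES stage, at 5.97, 6.06 and 6.15 in control and 6.59, 6.21 and 6.09 in knockdown arrays. It gave 5.16, 5.17 and 4.58 in control and 5.09, 5.31 and 4.87 in knockdown SNM arrays, and control array 3 did not detect it. Neuronal arrays gave 6.89, 6.83 and 6.93 for control and 4.91, 4.64 and 4.47 for knockdown cells, and 1 of the latter detected it. Control and knockdown arrays overlapped at the ES and SNM stages and stood apart at the neuronal stage.

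Ache was not detected on ES arrays, at 4.23 to 4.56 in control and 4.24 to 4.33 in knockdown cells. Its SNM signals were 5.07, 4.81 and 4.65 in control arrays, 2 of them detected, and 4.96, 4.98 and 4.99 in knockdown arrays. Its neuronal signals were 6.18, 5.73 and 5.82 in control and 6.0, 5.83 and 5.64 in knockdown arrays. Its control and knockdown arrays overlapped at every stage, and the neuronal arrays were the highest of both kinds of cell.

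**Figure D1:**
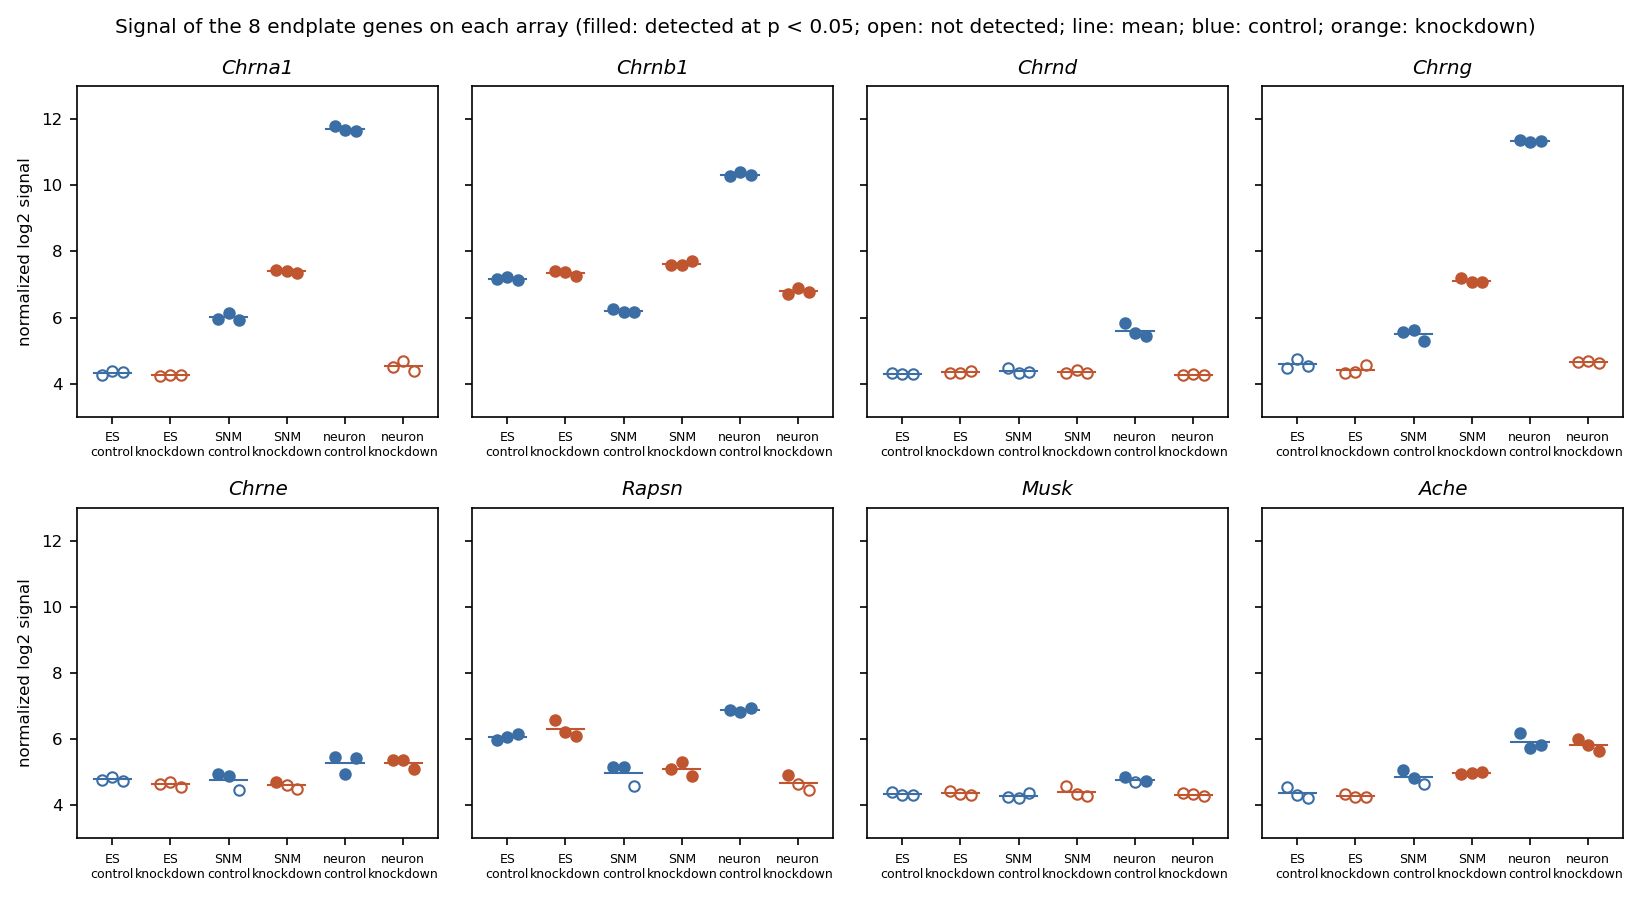
Normalized log2 signal of each member's brightest probe (y axis) on each of the 18 arrays, by condition (x axis; blue, control; orange, knockdown), with filled points for detected and open points for undetected signals and a line at the mean of 3 arrays. Chrna1 and Chrng reached 11.70 and 11.34 on average in control neuronal arrays and were not detected in knockdown neuronal arrays, whereas the Chrne and Ache arrays of both kinds of cell overlapped at that stage.

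The alpha, beta and gamma subunits were all higher in HPRT-knockdown than in WT control cells at the SNM stage. Relative to WT control, Chrng was 3.10-fold higher (log2 change 1.63, SE 0.09, adjusted p = 7.67e-10), Chrnb1 was 2.70-fold higher (log2 change 1.43, SE 0.06, adjusted p = 3.99e-11) and Chrna1 was 2.62-fold higher (log2 change 1.39, SE 0.08, adjusted p = 4.53e-10) by limma with Benjamini-Hochberg adjustment over all probes tested. Each of the 3 was higher on all 3 knockdown arrays than on any control array. In all, 3 of the 5 members tested were called higher (adjusted p under 0.05 and at least 1.5-fold) and none lower. Of all probes tested, 11% were called higher and 19.9% were called in either direction. Rapsn did not pass the test, with a log2 change of 0.12 (95% interval -0.23 to 0.47, adjusted p = 0.561). Ache did not pass either, with a log2 change of 0.13 (95% interval -0.14 to 0.40, adjusted p = 0.400). Chrnd, Chrne and Musk were not detected on all 3 arrays of either SNM condition and were not tested.

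The 3 calls held under each of the 18 alternative settings run for this comparison. Their log2 changes ranged from 0.85 to 1.46 for Chrna1, from 0.93 to 1.49 for Chrnb1 and from 0.87 to 1.72 for Chrng. The lowest values came without background correction for Chrna1 and Chrnb1, and from the mean over both probes for Chrng. A second probe of Chrna1 gave a log2 change of 1.32 (adjusted p = 1.48e-11), and the last of its 3 probes was below detection at this stage. The second Chrnb1 probe was higher in knockdown cells as well, by 0.81 (1.75-fold, adjusted p = 6.03e-05), less than the first. The second probe of Chrng, a dim one, was not detected at the SNM stage.

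At the ES stage, before differentiation, no member was called. Chrnb1 had a log2 change of 0.16 (95% interval 0.03 to 0.30, adjusted p = 0.114) and Rapsn one of 0.23 (95% interval -0.11 to 0.58, adjusted p = 0.408) in knockdown against control cells by limma. The unadjusted p was 0.0213 for Chrnb1 and 0.174 for Rapsn in the same limma fit. The other 6 members were below detection in both kinds of ES cell. Of all probes tested at this stage, 1.68% were called.

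The knockdown effect differed between the SNM and ES stages for the same 3 subunits. The SNM effect exceeded the ES effect by 1.27 on the log2 scale for Chrnb1 (SE 0.09, adjusted p = 2.51e-08), which was measured on every array of both stages. It exceeded it by 1.80 for Chrng (SE 0.13, adjusted p = 3.55e-08) and by 1.47 for Chrna1 (SE 0.11, adjusted p = 3.60e-08), though ES signals of both genes were below detection in either kind of cell. Both genes entered this test through SNM arrays alone. Their values therefore largely repeat the SNM comparison and are no separate result about the ES stage. The values for Rapsn (-0.11, adjusted p = 0.735) and Ache (0.23, adjusted p = 0.323) did not pass. Over all probes tested, 21.3% were called for this difference and 11.7% were called higher.

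**Figure D2:**
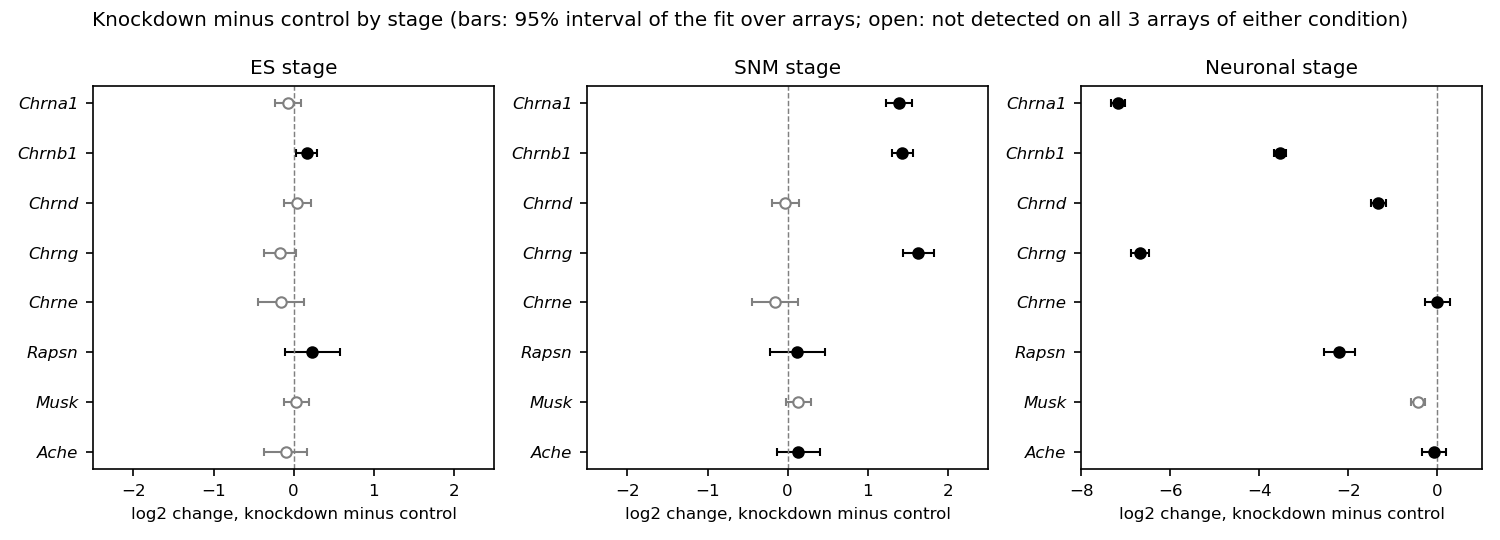
Log2 change of each member's brightest probe, knockdown minus control (x axis), at the ES, SNM and neuronal stages, with the 95% interval of the fit over arrays; filled points were detected on all 3 arrays of at least 1 condition, open points were not. For Chrna1, Chrnd and Chrng at the neuronal stage the knockdown signal was below detection, so the point depends on its background. The panel of the neuronal stage has a wider axis. Chrna1, Chrnb1 and Chrng lay above 0 at the SNM stage and far below 0 at the neuronal stage, while Chrne and Ache lay near 0 at both.

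From the ES to the SNM stage, Chrna1 and Chrng came above detection in both kinds of cell. Because the ES signals were below detection, these rises are lower bounds for background-corrected signals. They are taken against the lowest signal among detected probes of each ES array. Each adjusted p is that of the fitted limma change against ES signals at background, not of the bound. Both genes entered the test through their SNM arrays alone, where they were brighter. In control cells Chrna1 rose at least 2.20-fold (adjusted p = 5.76e-12) and Chrng at least 1.54-fold (adjusted p = 1.98e-07). In knockdown cells Chrna1 rose at least 5.51-fold (adjusted p = 1.50e-15) and Chrng at least 4.55-fold (adjusted p = 1.28e-13). The bounds use the SNM arrays of the previous comparison, and the floor is that of each array's own kind of ES cell.

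Chrnb1 fell in control cells and changed little in knockdown cells. It fell by 0.98 on the log2 scale in control cells (SE 0.06, adjusted p = 5.62e-10), and in knockdown cells it was 0.29 higher (SE 0.06, adjusted p = 5.24e-04), a change under 1.5-fold that was not called. Rapsn fell in both, by 1.09 in control (SE 0.16, adjusted p = 1.50e-05) and by 1.20 in knockdown cells (SE 0.16, adjusted p = 4.27e-06). Ache passed the rule in knockdown cells, with a log2 change of 0.71 (SE 0.13, adjusted p = 8.67e-05) that amounts to at least 1.03-fold over the ES floor, and was not tested in control cells. Like Chrna1 and Chrng, it was below detection at the ES stage and entered the test through its SNM arrays alone. Thus all 4 members tested in control cells were called, 2 in each direction, against 49.1% of all probes tested (23.7% higher and 25.4% lower). In knockdown cells 4 of the 5 members tested were called, 3 higher and 1 lower, against 57.3% of all probes tested (26.4% higher and 30.9% lower). Every member called higher entered through SNM arrays alone, where it was brighter. The filter thus favoured calls as higher, and these counts are descriptions.

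Some of these stage changes rest on the treatment of background. The calls of Chrng in control cells and of Ache in knockdown cells were each lost under 5 of the 18 alternatives, among them quantile normalization without background correction (log2 change 0.34 for Chrng and 0.36 for Ache) and scaling to the 75th percentile, also without background correction (0.10 for Chrng and 0.14 for Ache). The call of Rapsn was lost in both kinds of cell under the first of these (-0.46 in control and -0.54 in knockdown cells) and in control cells under the second (-0.57). In control cells the call of Chrna1 was lost under the second (0.49), and that of Chrnb1 with no normalization between arrays (-0.57).

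In neuronal stage arrays the order of the 2 kinds of cell was the reverse for the receptor. Chrna1 was at least 124-fold lower in HPRT-knockdown than in WT control cells (mean log2 signal 4.52 against 11.70), Chrng at least 96.5-fold lower (4.66 against 11.34) and Chrnd at least 1.81-fold lower (4.27 against 5.60), each of them below detection in knockdown cells. Chrnb1 was 11.6-fold lower (6.79 against 10.32) and remained detected on all 3 knockdown arrays. Rapsn had a mean of 4.67 against 6.88, and since 1 of the 3 knockdown arrays detected it, its difference of -2.21 on the log2 scale depends in part on the background. Control and knockdown arrays of these 5 genes did not overlap, and neither did those of Musk, near background. The share of all probes without overlap was not counted, and this contrast chose the members.

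The adult subunit and the enzyme did not share this difference. Chrne had mean log2 signals of 5.27 in both kinds of cell, a difference of -0.001 (95% interval -0.29 to 0.29). Ache had 5.82 in knockdown and 5.91 in control cells, a difference of -0.09 (95% interval -0.36 to 0.18). Musk had 4.32 and 4.76, and was not detected on all 3 arrays of either. In this contrast, which chose the members, 5 of the 7 members considered were past the call rule, all lower. Of all probes tested, 27.4% were past it, 13.5% lower.

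Within each kind of cell, the step from the SNM to the neuronal stage ran in opposite directions for the receptor. In control cells the log2 signal of Chrng was higher by 5.85, that of Chrna1 by 5.70, that of Chrnb1 by 4.12, that of Rapsn by 1.91 and that of Ache by 1.07, and Chrnd reached a level at least 1.79-fold higher. Over the same step in knockdown cells Chrng was at least 5.18-fold lower and Chrna1 at least 6.28-fold lower, Chrnb1 differed by -0.84 on the log2 scale, and Rapsn by -0.42 with overlapping arrays. Chrne was higher at the neuronal stage in both, by 0.51 in control and 0.66 in knockdown cells, and so was Ache in knockdown cells, by 0.85. The members past the call rule numbered 6 of the 7 considered in control cells, all higher. There 29.4% of all probes tested were past it and 14.3% were higher. In knockdown cells the members past it numbered 5 of the 6 considered, 2 higher and 3 lower. There 28.6% of all probes tested were past it, 13.8% higher and 14.8% lower. The 2 higher members of the knockdown cells, Chrne and Ache, were no longer past the rule under quantile normalization without background correction (0.24 and 0.34), 75th percentile scaling of uncorrected intensities (0.28 and 0.37), an offset of 50 (0.31 and 0.47) or a minimum of 2-fold, and Ache also not for the mean over probes (0.41). These comparisons share the SNM and neuronal arrays of those above, and they use the arrays that chose the members.

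The other probes of these genes gave the same picture where they were detected. In control neuronal arrays the other 2 probes of Chrna1 had mean log2 signals of 11.50 and 7.48, and in knockdown neuronal arrays neither was detected. The second Chrnb1 probe gave 8.09, 8.24 and 8.27 in control and 5.29, 5.30 and 5.19 in knockdown neuronal arrays. The second Chrng probe was detected in control neuronal arrays alone, at 5.59, 5.50 and 5.61. Both further Rapsn probes were likewise higher in control than in knockdown neuronal arrays, without overlap. The second Chrnd probe was detected on 2 of 3 control neuronal arrays, at 5.33 and 4.86, while the second probes of Musk and Ache were detected on no array.

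The fetal and adult subunits were compared as the log2 signal of Chrng minus that of Chrne on the same array, which is read only as a change between conditions. The mean difference was -0.20 ± 0.10 (SD, n = 3 arrays) in control and -0.21 ± 0.21 in knockdown ES cells, where neither gene was detected. SNM arrays gave 0.72 ± 0.10 for control and 2.51 ± 0.05 for knockdown cells. In neuronal cells it was 6.07 ± 0.25 in control and -0.61 ± 0.13 in knockdown arrays. Chrng was not detected on any knockdown neuronal array, so values of that condition and of both ES conditions depend on the background and carry no order.

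In SNM cells the balance was shifted toward Chrng by 1.79 in knockdown against control cells (SE 0.07), with no overlap between the arrays, and the exact two-sided permutation test of 3 against 3 arrays gave p = 0.1, the smallest p it allows. Chrne itself was detected on 2 of the 3 control and 1 of the 3 knockdown SNM arrays. The shift was 0.95 under quantile normalization and 1.02 under scaling to the 75th percentile, both without background correction, 1.20 with an offset of 50 and 1.03 for the mean over probes. Since neither gene was detected on ES arrays, the change from that stage could not be measured. Chrng supplied most of the SNM difference, the 18 array signals of Chrne spanning less than 1.0.

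**Figure D3:**
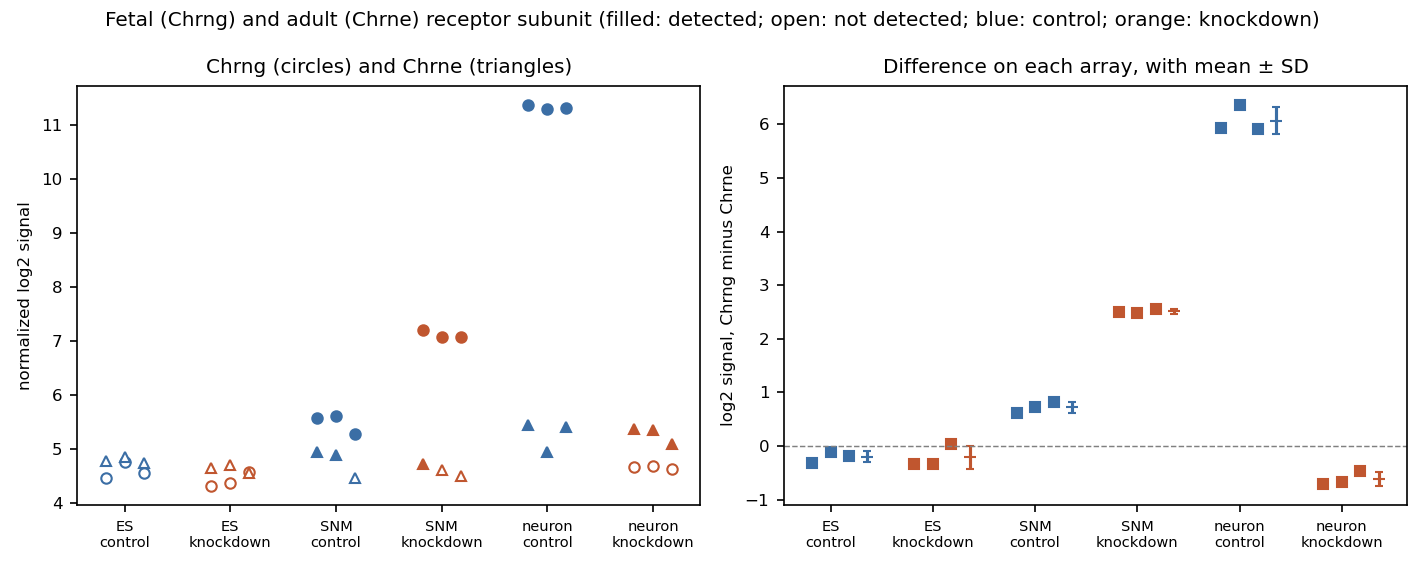
Left, normalized log2 signal (y axis) of Chrng (circles) and Chrne (triangles) on each array by condition; right, their difference on each array with its mean and SD over 3 arrays. Levels of the 2 probes are not comparable, and only the change of the difference is read: it was 0.72 and 2.51 in control and knockdown SNM arrays and 6.07 and -0.61 in control and knockdown neuronal arrays.

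The genes whose signal pattern was most like that of a member were ranked by Pearson r over the 18 arrays. These arrays are 6 RNA pools with 3 arrays each, so r is a description. For Chrng the closest were scl000959.1_2, Cox6a2, Chrna1, Popdc2 and Sln, with r from 0.995 to 0.997. For Chrna1 they were Myh8, scl000959.1_2, Chrng, Trim72 and Tnnc1, with r from 0.994 to 0.997. The closest to Chrne were Phlda3, 3110007F17Rik, Dusp11, Rbms2 and Ethe1, with r from 0.883 to 0.898, and the closest to Ache were Pfkm, Spnb1, Hoxd9, 2300002D11Rik and Pold4, with r from 0.976 to 0.984. Among the members themselves r was 0.995 between Chrng and Chrna1, 0.827 between Chrne and Ache and 0.405 between Chrng and Chrne.

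Markers of skeletal muscle fibres, of which 14 of 15 were on the array, moved in the same direction as the receptor. In SNM cells 8 of the 10 tested were called higher in knockdown cells and none lower, among them the embryonic and perinatal myosin heavy chains Myh3 (log2 change 1.69) and Myh8 (1.99), the fast troponin C gene Tnnc2 (1.48) and the actin-crosslinking protein gene Actn2 (0.99). Their median log2 change was 0.88, against -0.04 for all probes tested, and their summed signal on the linear scale was 1822 to 1870 in control and 3327 to 3619 in knockdown SNM arrays. The share of all probes tested that was called higher at this stage was 11%. The markers Ckm, Cav3 and Casq1 of mature fibres were not detected on any SNM array. In the neuronal arrays all 14 markers were detected in control cells, with a summed signal of 78872 to 79699, and 6 were detected on no knockdown array (Ckm, Tnnt3, Ttn, Cav3, Casq1 and Cacna1s), where the sum was 492 to 619. All 14 were past the rule as lower in knockdown neuronal cells, where 13.5% of all probes tested were past it as lower. The fall of skeletal muscle genes in this contrast is what chose the members, so the count is a description and no separate support. At the ES stage the sums overlapped, at 1840 to 2012 in control and 1907 to 2139 in knockdown cells, and of 8 markers tested the actin gene Acta1 alone was called, as lower (-0.61, adjusted p = 0.0342). The part of muscle fibre content in the receptor values was not tested.

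Of the myogenic regulators, 12 of 13 were on the array. Myog, which drives myoblast differentiation, rose at the SNM stage in knockdown cells (log2 change 0.65, adjusted p = 0.00246), Eya1 fell by 0.62 (adjusted p = 1.93e-04) and the other 7 tested were not called. At that stage 19.9% of all probes tested were called. In control SNM cells Myog was detected on 1 array alone (mean log2 signal 4.94, SD 0.46), so its rise depends in part on the background. In neuronal arrays, where the fall of muscle genes chose the members, 7 of 11 were past the rule as lower in knockdown cells and none as higher. There 13.5% of all probes tested were past it as lower. Myog was at least 17.8-fold and Myf6 at least 11.3-fold lower. Myod1, Myog, Myf5 and Myf6 were not detected on any knockdown array of that stage, whereas every one of the 12 was detected on at least 1 control array.

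Genes that organise the endplate or its matrix were less uniform. Of 34 such genes 23 were tested at the SNM stage, 8 were called higher and 3 lower in knockdown cells, and the median log2 change was 0.06. The shares of all probes tested there were 11% called higher and 19.9% called in either direction. Among the listed genes that rose were the dystrobrevin gene Dtna (1.11) and the laminin chain Lamb2 (1.09). Agrn, the nerve- and muscle-derived organiser that acts through Musk, rose by 0.81 (adjusted p = 1.78e-06). The genes that fell were Nrg1, a nerve-derived signal to ErbB receptors (-1.41), and both chains of the factor that binds N-boxes, Gabpb1 (-0.83) and Gabpa (-0.61). Of 24 considered in neuronal arrays, 2 were past the rule as higher in knockdown cells, the agrin receptor Lrp4 (1.03) and Nrg1 (1.23), and Sgca, Ky, Dtna and Nid2 were among those past it as lower. There 27.4% of all probes tested were past the rule and 13.5% were lower. Scn4a, Col13a1, Erbb3, Erbb4 and Lnx1 were not detected in any condition, and Colq, the collagen tail that anchors Ache, and Dok7, the activator of Musk, were not detected at the ES or SNM stage.

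The neuronal nicotinic subunits, related channel genes used outside muscle, did not move with the muscle receptor at the SNM stage. Of 11 genes 4 were tested there, and none was called higher in knockdown cells. The shares of all probes tested were 11% called higher and 19.9% called in either direction. Chrna3 fell (log2 change -1.66, adjusted p = 4.38e-11), and so did Chrna5 (at least 1.37-fold lower, adjusted p of the fitted limma change = 2.04e-05). In knockdown SNM cells Chrna3 was detected on 1 array (mean log2 signal 4.60) and Chrna5 on none. Both genes entered the test through control arrays alone, and the size of either change depends in part on the background. In neuronal arrays Chrna3 was at least 1.61-fold and Chrnb2 at least 2.96-fold lower in knockdown cells, where both were below detection, and the difference of Chrna4 was -0.89 on the log2 scale. Muscle and neuronal subunits therefore took opposite signs at the SNM stage and the same sign at the neuronal stage among the genes called or past the rule.

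Genes that make, move or break down acetylcholine, apart from Ache itself, numbered 8 on the array. Of the 3 tested at the SNM stage 1 was called in knockdown cells, the receptor chaperone Ric3 (log2 change 0.85), where 11% of all probes tested were called higher. Of 5 considered in neuronal arrays, 4 were past the rule as higher in knockdown cells: the choline transporter-like gene Slc44a1 (2.71), the synthesising enzyme Chat (1.00), the vesicular transporter Slc18a3 (0.86) and Prima1, the membrane anchor of Ache (0.84). In either direction 27.4% of all probes tested were past the rule in this contrast. Of 7 motor neuron markers, a list that also holds Chat and Slc18a3, 4 were considered in neuronal arrays. Chat, Slc18a3 and Isl2 (mean log2 signal 6.20 against 4.84) were past the rule as higher in knockdown cells and Isl1 (5.31 against 8.12) as lower. Lhx3 was detected on 2 arrays of each kind of cell, Slc5a7 on 1 control array and Mnx1 on none. The summed signal was 411 to 447 in control and 271 to 292 in knockdown neuronal arrays.

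**Figure D4:**
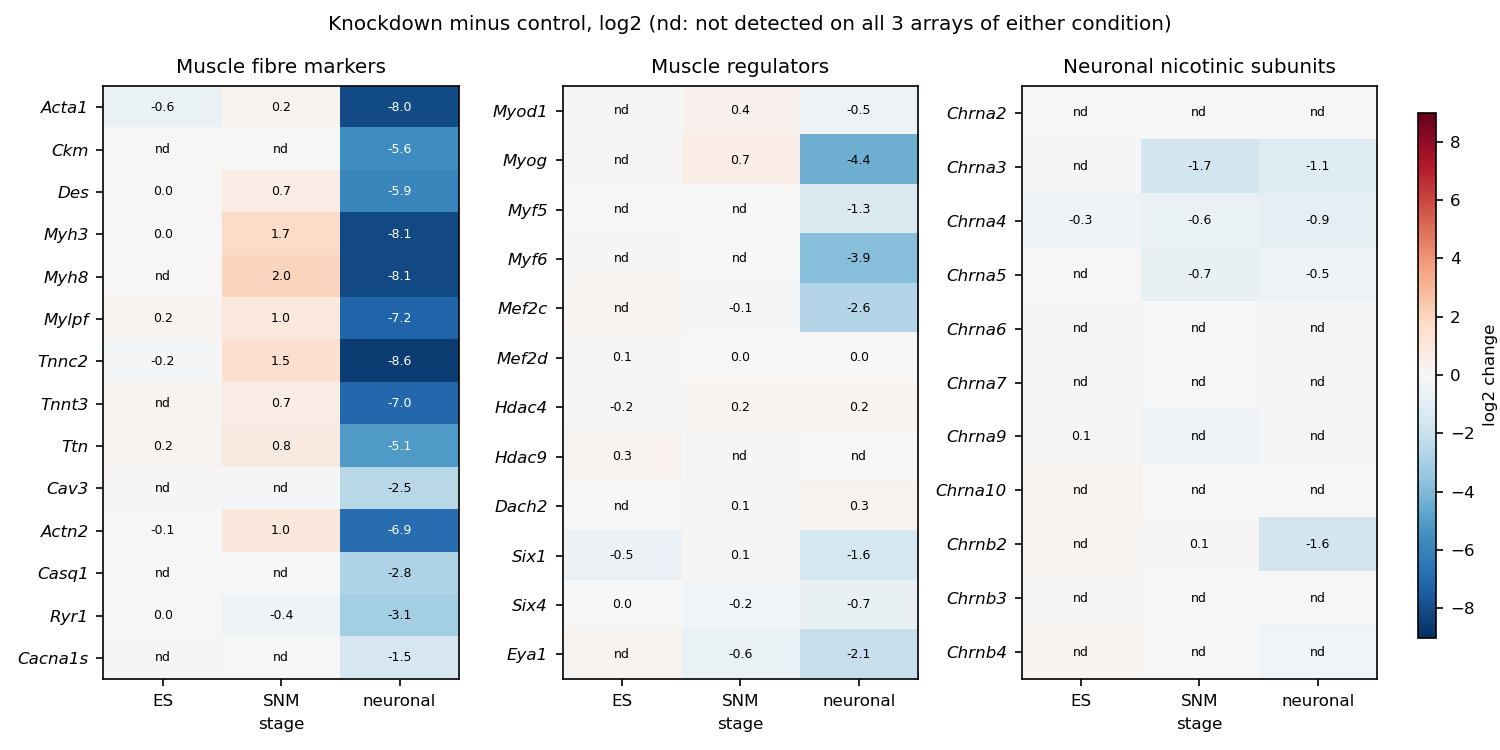
Log2 change, knockdown minus control, of muscle fibre markers, muscle regulators and neuronal nicotinic subunits (rows) at the ES, SNM and neuronal stages (columns); colour and printed value give the change, and nd marks genes not detected on all 3 arrays of either condition; where a single condition was below detection the value depends on its background. Muscle fibre markers such as Myh8 were higher at the SNM stage (1.99) and lower at the neuronal stage (-8.12), and the called nicotinic subunits of neurons were lower at both.

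Other cell types also differed between the conditions. Oligodendrocyte markers had summed signals of 9064 to 9501 in control and 2566 to 2987 in knockdown SNM arrays, with 4 of 5 tested called lower, and of 975 to 1057 in control and 52254 to 55875 in knockdown neuronal arrays. Fibroblast markers summed to 201 to 228 in control and 180 to 189 in knockdown ES arrays, and to 4912 to 5246 in control and 5180 to 6126 in knockdown SNM arrays, with 1 of 6 called (Col1a1, higher). In neuronal arrays all 6 fibroblast markers were past the rule as lower in knockdown cells, with sums of 13295 to 13906 in control and 6283 to 7601 in knockdown arrays. The sums were lowest at the ES stage, the stage grown on embryo fibroblasts, so they are not read as a measure of feeder cells. Heart muscle markers summed to 163 to 191 in control and 234 to 247 in knockdown SNM arrays, with Nppa called higher, and Myl2 was not detected at that stage. Their neuronal sums were 330 to 359 in control and 105 to 110 in knockdown arrays, with Myh6 and Myl2 past the rule as lower. In control neuronal arrays Myl2 and Myh6 had mean log2 signals of 7.84 and 5.65, and Myl7, Tnni3 and Nppa were detected on none. Control Myl7 had a mean of 6.17 at the SNM stage, so these markers did not move as a set. Neuron markers summed to 7075 to 7840 in control and 6303 to 7157 in knockdown SNM arrays, with Elavl4 and Ina called lower of 7 tested, and to 10901 to 11749 in control and 5382 to 6077 in knockdown neuronal arrays. ES cell markers summed to 4215 to 4543 in control and 2757 to 2881 in knockdown SNM arrays, with 4 of 5 called lower, and to 3358 to 3564 in control and 825 to 895 in knockdown neuronal arrays, with 5 of 5 past the rule as lower. Beside these counts, 19.9% of all probes tested were called at the SNM stage and 27.4% were past the rule in neuronal arrays. The part of these cell types in the receptor values was not tested.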

How the data were processed

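For the microarray data, the authors deposited the bead-averaged intensity of each probe on each of the 18 arrays with no normalization, and with each intensity a detection p-value from Illumina's software. A second deposited table supplied the annotation, and its 72 columns of per-sample values, named by chip position, were not used, so chips could not be examined as batches. Samples were grouped, and arrays numbered, by their titles.

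Intensities were processed in R 4.3.3 with the neqc function of limma 3.58.1 (background from the detection p-values, offset 16, quantile normalization, log2), and 1 model of 6 conditions was fitted to all probes with lmFit, contrasts.fit and eBayes. A probe was tested if either condition compared had detection p-values under 0.05 on its 3 arrays, and called at a Benjamini-Hochberg adjusted p under 0.05 and 1.5-fold. All tests are two-sided. Where 1 condition was below detection, the fold is a bound against each array's lowest detected signal, or the probe's own where higher. Intervals are 95% intervals of the fit. The script was tested on simulated data.

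The genes named are all 8 members with every probe, at most 4 genes of each list and comparison, by size of change, and the 5 symbols most like Chrng, Chrne, Chrna1 and Ache. Agrn, Gabpa, Gabpb1 and genes named as not detected, or to complete a count of 5 or fewer, were chosen after their values were seen. 1 gene that this rule names is not reported here. Members and lists were chosen with earlier results of these data known. Promoters came from RefSeq GRCm38.p6. At the SNM stage, same-numbered control and knockdown arrays deviated together, the correlations being 0.49, 0.11 and 0.49 across probes. Alternatives were other background corrections and normalizations, offset, detection filter, fold, samples fitted, the array number as a replicate block, the methods' t-test, the mean over probes, and leaving out each array.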

Additional observations from a re-analysis of the deposited data

Results flagged for a closer look

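The knockdown effect differed between stages for 3 receptor subunits. By the test of the difference itself in the limma fit, the effect at the SNM stage exceeded that at the ES stage by 1.47 on the log2 scale for Chrna1, by 1.27 for Chrnb1 and by 1.80 for Chrng. The ES signals of Chrna1 and Chrng were below detection in both kinds of cell, and those of Chrnb1 were measured on every array. The values of Chrna1 and Chrng therefore largely repeat the SNM comparison.

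At the neuronal stage the effect of the same genes had the opposite sign on every array. The neuronal effect minus the SNM effect was -8.57 for Chrna1, -4.96 for Chrnb1 and -8.31 for Chrng on the log2 scale. The knockdown neuronal signals of Chrna1 and Chrng were below detection, so their 2 values depend on the background. These differences were not tested, since the genes were chosen on the neuronal arrays.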

How the results depend on the processing

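The counts of members called in knockdown against control cells (3 at the SNM stage, 0 at the ES stage, 5 past the rule at the neuronal stage) and for the knockdown effect between stages (3) stayed within 1.5 times their values under every alternative run. With the array number as a replicate block, the same 3 members were called at the SNM stage and no other count moved by over 1.5 times. For control cells from the ES to the SNM stage the count went from 4 to 2 under quantile normalization without background correction, to 1 under 75th percentile scaling of uncorrected intensities and to 2 at a minimum of 2-fold. For knockdown cells over that step it went from 4 to 2 under quantile normalization without background correction. For knockdown cells from the SNM to the neuronal stage it went from 5 to 2 under quantile normalization without background correction, to 3 under 75th percentile scaling of uncorrected intensities, to 3 with an offset of 50 and to 2 at a minimum of 2-fold, with 0 members higher under each of these 4 settings. The shift of the Chrng minus Chrne difference at the SNM stage (1.79) was 0.95 under quantile normalization without background correction, 1.02 under 75th percentile scaling of uncorrected intensities, 1.20 with an offset of 50 and 1.03 for the mean over probes, and 1.73 to 1.84 when 1 array was left out. Without background correction the added background compresses changes of dim probes. No called change of a member reversed its sign under any alternative. Left-out arrays gave 6 or 7 members for control cells from the SNM to the neuronal stage and the main count elsewhere. Omitting normalization between arrays moved the median change of all probes by over 0.1 from the ES to the SNM stage alone, from -0.08 to 0.19 in control and from -0.11 to 0.12 in knockdown cells. Signals of Chrnd, Chrne, Musk and Ache lie near background, which limits what their arrays can show.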
